A study of Mus musculus with 6 samples.

Results

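The RNA of 30 genes of the autophagy machinery was followed in adult mouse retinas, in 3 WT samples and 3 samples from Trim9 KO mice, on 1 Affymetrix mouse genome array per sample. The genes were chosen by name, beside 18193 genes with a probe set that named 1 gene only. They are core genes that start an autophagosome, join ATG8 proteins to its membrane, form the ATG8 family, or act as receptors for its cargo. The Trim9 KO mice lacked exon 1 of Trim9, a gene for a brain-enriched E3 ubiquitin ligase, after Cre excision by a cross with CMV-cre mice. The CMV promoter is active in nearly all tissues, so the deletion was not limited to the retina. The WT mice were littermates that kept the exon. Retinas were taken at maturity according to the tissue and growth labels, while a treatment label speaking of embryos was set aside, and age and sex are not given in the sources used here. Each sample is described as coming from a mouse retina, and nothing further says how the animals of a group were related. The limma p-values rest on the spread between these 6 samples, drawn for each probe set toward that of all probe sets.

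Macroautophagy is the route by which a cell wraps part of its own cytoplasm in a double membrane and delivers it to the lysosome. A kinase complex around ULK1 and a lipid kinase complex around Beclin 1 start the membrane, the enzymes ATG7, ATG3 and ATG10 and the ATG12-ATG5-ATG16L1 complex attach ATG8 proteins to it, and receptors such as p62 bring ubiquitin-tagged cargo to the attached ATG8 proteins. In the retina, photoreceptors and ganglion cells rely on it for the turnover of proteins and mitochondria.

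Of the 30 members, 29 were measured by 72 probe sets, the groups of short oligonucleotides that read 1 transcript region. There were 12 initiation members, 10 conjugation members, 5 ATG8 family members and 2 receptors. Optn, which encodes the receptor optineurin, was not analysed here. The measured members had between 1 and 6 probe sets each. A gene is described first by its brightest probe set, the one with the highest log2 mean across all samples. Values are the deposited linear intensities, and differences are Trim9 KO minus WT on the log2(intensity + 16) scale, so that a difference of a low signal is understated. The levels of different genes are not compared.

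The arrays differed from each other within each genotype. The median intensity ran from 218 to 807 across the 6 arrays, and the Trim9 KO 1 array correlated with the others at r between 0.47 and 0.52 over all probe sets. The Actb control probe sets at the 3′ end gave 2.83 times the signal of those at the 5′ end on Trim9 KO 1 and 3.43 times on WT 3. On the other arrays they gave 9.87 to 94.5 times. For Gapdh this log2 difference was −0.14 on the WT 3 array and 6.28 to 8.10 on the other 5 arrays. Of 13 listed retinal marker genes, 11 were measured and had means above the median of all probe sets. Their summed linear intensity was 466112 to 714183 in WT and 323923 to 460839 in Trim9 KO. In such a sum the brightest markers weigh most, and it does not show whether the single markers of a list moved alike. For 6 listed pigment epithelium markers, 3 of them with means above that median, the sum was 70272 to 470934 in WT. It was 324835 to 494481 on the Trim9 KO 2 and 3 arrays and 1.36e+06 on the Trim9 KO 1 array. The part of these differences in any value given here was not tested. In bulk tissue, fewer cells of a type and less RNA per cell cannot be told apart.

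Trim9 itself was read first as a check of the labels. Its brightest probe set gave 4226, 1767 and 1667 on the WT arrays and 1498, 497 and 367 on the Trim9 KO arrays. No Trim9 KO array reached the lowest WT array, and the log2 difference was −1.81 ± 0.99 (SE, n = 3 and 3, limma adjusted p = 0.999). Its other 3 probe sets also had lower means, at −0.77, −0.58 and −2.48. Those at −0.77 and −0.58 overlapped between genotypes. The one at −2.48 did not, and it read 35.9 on Trim9 KO 1 beside 1414 and 759 on Trim9 KO 2 and 3. Whether any Trim9 probe set lies within exon 1 was not determined here.

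Across the autophagy machinery, no member passed the test. With limma and Benjamini-Hochberg adjustment over 45037 probe sets, 0 probe sets on the array (0%) had an adjusted p below 0.05, and 1296 had an unadjusted p below 0.05. By the brightest probe set, 0 of 29 members had an unadjusted p below 0.05, beside 2.56% of all genes. The lowest unadjusted p among members was 0.0935 (limma), for Atg16l1. The mean was lower in Trim9 KO for 18 members and higher for 11. The median difference was −0.32, with a range from −2.02 for Becn1 to 1.37 for Atg10, and the Becn1 value was −0.31 without Trim9 KO 1. Over all 18193 genes the median was 0.14 and 44.8% had a lower mean in Trim9 KO. That split depended on how arrays were scaled, and with equal array medians 57.2% of all genes and 22 of the 29 members had a lower mean. It also depended on 1 array, since without WT 3 the members' median was 0.19 and 10 of the 29 had a lower mean.

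**Figure D1:**
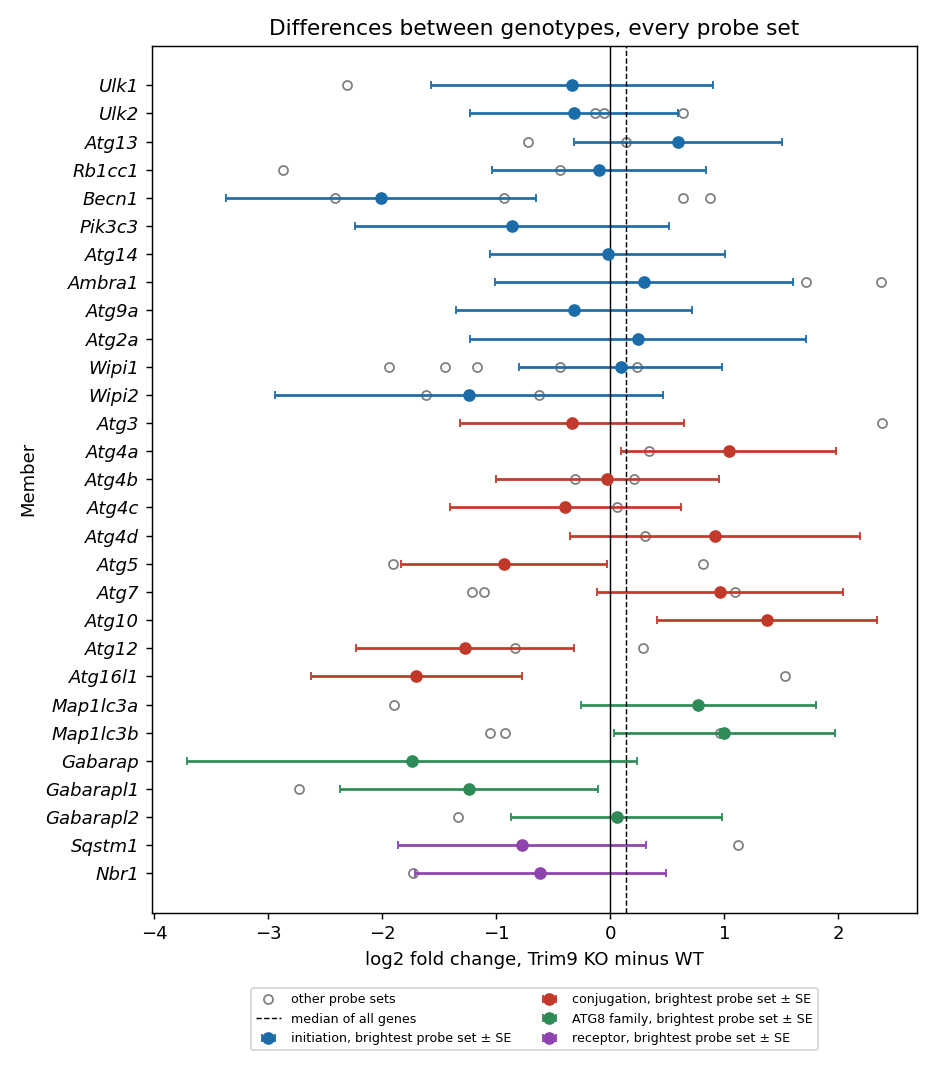
Difference between Trim9 KO and WT of each measured member on the log2(intensity + 16) scale, by role. Filled points with bars are the brightest probe sets ± SE of the limma fit, open points the other probe sets, and the dashed line the median of all genes at 0.14, and 18 of the 29 filled points lie below 0.

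By the brightest probe sets, the genotypes did not overlap for 2 members, Atg5 and Atg16l1, both lower on every Trim9 KO array, and for no member in the other direction. Over all genes, 2.89% had every Trim9 KO array below every WT array and 5.35% had every Trim9 KO array above. The ratio of the highest to the lowest of the 6 arrays was 6.54-fold for the median member and 11.5-fold for the median gene. Among members it reached from 1.39-fold for Wipi1, which encodes a phosphoinositide-binding protein of the early membrane, to 2319-fold for Gabarap.

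**Figure D2:**
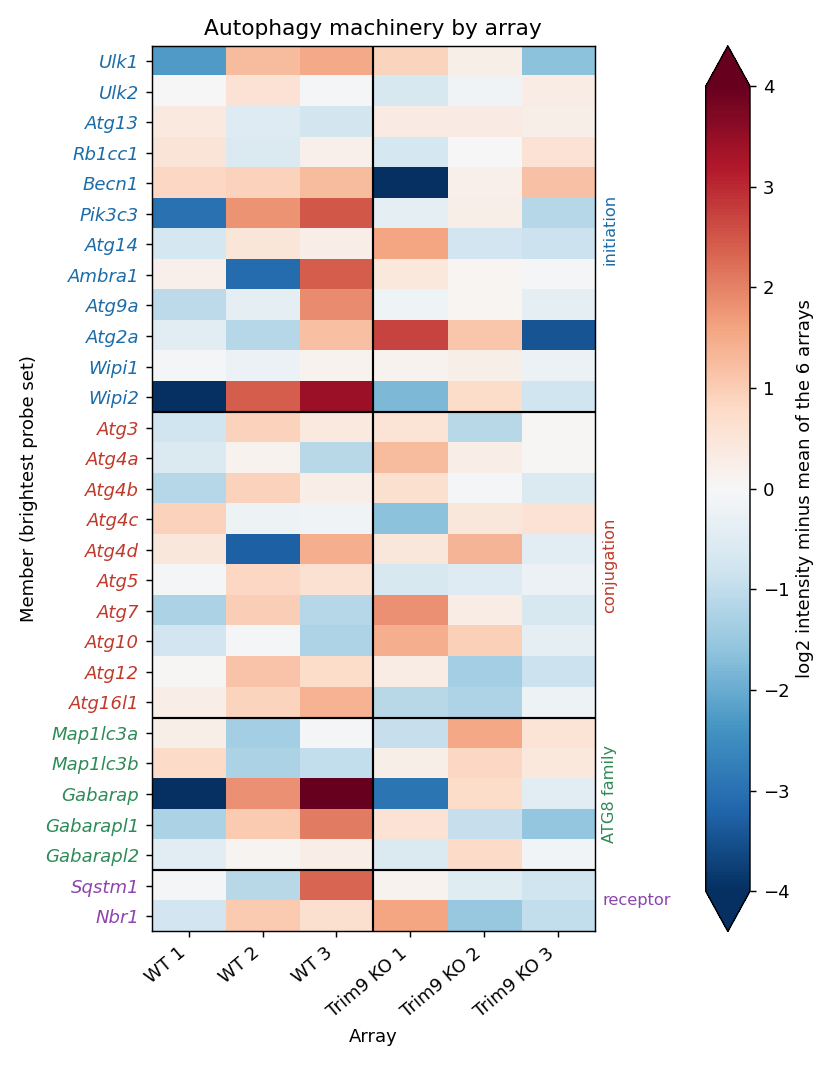
Deviation of each member's brightest probe set on each array from its mean over the 6 arrays, in log2 units, with members in rows by role and arrays in columns, red above and blue below the mean, and values beyond the colour bar at its end colours. The WT 3 array holds the highest value for 11 of 29 members.

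The initiation members had lower means in Trim9 KO for 8 of 12 genes and higher means for 4, with a median difference of −0.21, and all 12 overlapped between genotypes by their brightest probe sets. The median was 0.18 without WT 3 and 0.14 with WT 3 and Trim9 KO 1 both left out. Becn1 encodes Beclin 1, the scaffold of the class III phosphatidylinositol 3-kinase complex. It gave 6890, 7395 and 9335 on the WT arrays and 167, 4496 and 8763 on the Trim9 KO arrays, a log2 difference of −2.02 ± 1.36 (SE). The 3 WT arrays were close together and the Trim9 KO 1 array was far below all others, while Trim9 KO 3 lay within the WT values. Without Trim9 KO 1 the difference was −0.31, and with 2 against 2 arrays, which left out Trim9 KO 1 and WT 3, it was −0.18. The other 4 Becn1 probe sets went both ways, at −0.93, −2.42, 0.63 and 0.88. The second of these, with an unadjusted p of 0.0432 and an adjusted p of 0.999 in the limma fit, read 1373, 2763 and 626 in WT and 94.4, 653 and 205 in Trim9 KO, with 1 Trim9 KO array within the WT range.

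Of the partners of Beclin 1, Pik3c3, the catalytic lipid kinase, differed by −0.86 ± 1.38 (SE). Atg14, the subunit that takes the complex to the site of initiation, differed by −0.03 ± 1.03 (SE). Ambra1, a positive regulator of Beclin 1, differed by 0.29 ± 1.31 (SE) by its brightest probe set. The other 2 probe sets of Ambra1 were also higher in Trim9 KO, at 1.71 and 2.37. The last of them read 5.76, 70.8 and 160 in WT and 469, 460 and 183 in Trim9 KO, without overlap, at an unadjusted p of 0.0472 and an adjusted p of 0.999 in the limma fit. The WT 1 value of 5.76 was below the pseudocount of 16.

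Within the ULK complex, which receives the nutrient signal, Atg13 had the largest ratio of difference to error. Atg13 encodes the subunit that links the kinase to its scaffold. It read 3730, 1985 and 1708 in WT and 3639, 3581 and 3375 in Trim9 KO. The Trim9 KO arrays had an SD of 0.06 log2 units and lay above WT 2 and WT 3 and below WT 1, and the log2 difference was 0.60 ± 0.91 (SE). The kinases Ulk1 and Ulk2 differed by −0.34 ± 1.23 (SE) and −0.32 ± 0.91 (SE), and Rb1cc1, the scaffold FIP200, by −0.10 ± 0.94 (SE). The other probe sets of Atg13 differed by −0.72 and 0.14, those of Ulk2 by −0.06, −0.14 and 0.63, that of Ulk1 by −2.31 and those of Rb1cc1 by −0.44 and −2.87, all with overlap between genotypes. With the mean of probe sets Atg13 differed by 0.0040.

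Among the membrane factors, Wipi2, which recruits ATG16L1 to phosphoinositide-marked membrane, read 4.56, 1725 and 3432 on the WT arrays and 76.8, 524 and 171 on the Trim9 KO arrays. The WT arrays held both the lowest value, which was below the pseudocount of 16, and the 2 highest values. The log2 difference was −1.24 ± 1.70 (SE). Without WT 1 it was −3.54, and without WT 3 it was 0.16. Atg9a, a lipid scramblase on vesicles that seed the membrane, differed by −0.32 ± 1.04 (SE). Atg2a, a lipid transfer protein, differed by 0.24 ± 1.47 (SE), and it was the only member whose brightest probe set had a mean below the median of all probe sets. Wipi1 differed by 0.09 ± 0.89 (SE) by its brightest probe set. A dimmer Wipi1 probe set read 1828, 2259 and 1829 in WT and 663, 308 and 1712 in Trim9 KO, without overlap, at −1.45 ± 0.98 (SE). The 6 Wipi1 probe sets thus ran from −1.94 to 0.23.

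The conjugation members had lower means in Trim9 KO for 6 of 10 genes and higher means for 4, with a median difference of −0.18, which was 0.07 without Trim9 KO 2. The 3 subunits of the complex that decides where ATG8 proteins are attached had the largest negative differences of the group. Atg16l1, which anchors the complex to the membrane, read 1171, 1796 and 2562 on the WT arrays and 440, 400 and 833 on the Trim9 KO arrays. Every Trim9 KO array lay below every WT array, with means of 10.79 ± 0.56 and 9.09 ± 0.56 (SD, n = 3 each) on the log2 scale. The log2 difference was −1.70 ± 0.93 (SE), a 3.25-fold lower mean, with an exact two-sided permutation p of 0.1, the smallest that 3 against 3 arrays can give, and a limma adjusted p of 0.999.

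Atg5, whose protein is joined to ATG12, read 1321, 2414 and 2068 in WT and 856, 946 and 1144 in Trim9 KO. Again no Trim9 KO array reached the WT values, and the gap between WT 1 and Trim9 KO 3 was small beside the spread within WT. The log2 difference was −0.93 ± 0.90 (SE), a 1.91-fold lower mean, with an exact two-sided permutation p of 0.1 and a limma adjusted p of 0.999. Atg12, the ubiquitin-like tag itself, read 2998, 6381 and 4877 in WT and 3596, 1125 and 1600 in Trim9 KO. The Trim9 KO 1 array lay within the WT values and the other 2 Trim9 KO arrays below them, for a log2 difference of −1.27 ± 0.95 (SE).

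The dimmer probe sets of these 3 genes did not all go the same way. Those of Atg5 differed by −1.91 and 0.81, those of Atg12 by −0.84 and 0.29, and that of Atg16l1 by 1.53 (−0.09 for the mean of both Atg16l1 probe sets), where Trim9 KO 1 read 925 against 98.2 for the highest WT array. All 5 of them overlapped between genotypes.

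Atg10, the E2-like enzyme that joins ATG12 to ATG5, had the largest positive difference of the members. Its single probe set read 2829, 4610 and 2030 in WT and 13275, 9312 and 3771 in Trim9 KO. The Trim9 KO 1 and 2 arrays lay above all WT arrays and Trim9 KO 3 below WT 2, and the log2 difference was 1.37 ± 0.97 (SE). Atg7, the E1-like enzyme that activates both tags, differed by 0.96 ± 1.08 (SE), and its other 3 probe sets by −1.11, −1.22 and 1.09. Atg3, the E2-like enzyme for ATG8 proteins, differed by −0.34 ± 0.98 (SE). A dim Atg3 probe set read 44.7, 108 and 133 in WT and 2652, 196 and 265 in Trim9 KO, higher on all Trim9 KO arrays, with a log2 difference of 2.38 ± 1.15 (SE, limma adjusted p = 0.999).

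The ATG4 proteases trim ATG8 proteins before they are attached and release them afterwards. Atg4a and Atg4d had higher means in Trim9 KO, by 1.04 ± 0.94 (SE) and 0.92 ± 1.27 (SE). Atg4b and Atg4c had lower means, by −0.03 ± 0.98 (SE) and −0.39 ± 1.01 (SE). The SE of each of the 4 differences was close to or above the difference itself, and none of the 4 genes was without overlap.

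**Figure D3:**
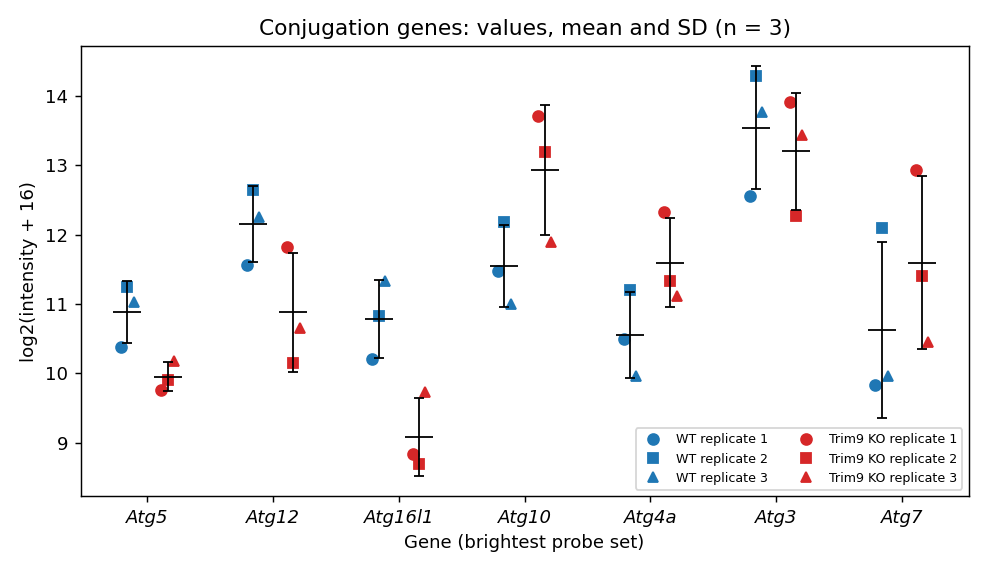
Intensity on each array, on the log2(intensity + 16) scale, of the brightest probe sets of 7 conjugation genes, with each array as a point and the mean ± SD of each genotype (n = 3) as lines. Atg5 and Atg16l1 are without overlap and lower in Trim9 KO, while Atg10 has 2 Trim9 KO arrays above all WT arrays.

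The E-box core CACGTG, the letters that transcription factors of the MiT/TFE family (Tfeb and Tfe3 among them) can bind, was searched near the transcript starts of the members. The stretches printed are the only ones of the members that held it. Windows of 250 bases before to 50 bases after a start, from RefSeq on GRCm38.p6, were at hand for 24 members in 27 windows. The core was found for 4 members, beside 8.09% of 27025 genes. The longer palindromic CLEAR element, which contains the core, was found for no member and for 0.370% of genes. Both motifs read the same on either strand. The stretches are printed 5′ to 3′ on the strand of the gene, with the core in capitals. They lie at chr6:114670952-114670981 (Atg7, plus strand), chr10:44268313-44268342 (Atg5, plus strand), chr14:47568418-47568447 (Atg14, minus strand) and chr16:45158723-45158775 (Atg3, plus strand, with the core found at 2 places), and the first base of the core is at −132, −14, −1 and, for Atg3, −94 and −71 from the start. The Atg7 window belongs to a start inside the gene, whose annotated span begins at 114643127. The Atg5 window also belongs to a start inside its gene, whose annotated span begins at 44268322, so the Atg5 core lies within that span.
Atg7: catattggtggtCACGTGtgcagtaagtga
Atg5: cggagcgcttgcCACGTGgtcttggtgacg
Atg14: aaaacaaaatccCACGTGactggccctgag
Atg3: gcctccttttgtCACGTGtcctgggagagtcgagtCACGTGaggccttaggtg
The differences of these 4 genes, 0.96, −0.93, −0.03 and −0.34, had no common sign.

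The ATG8 family had lower means in Trim9 KO for 2 of 5 genes and higher means for 3, with a median difference of 0.05. The median was −0.31 without Trim9 KO 2 and −0.64 when probe sets were averaged per gene. Both LC3 genes had higher means in Trim9 KO by their brightest probe sets, which turned with the mean of probe sets, and of the 3 GABARAP genes 2 had lower means and 1 a higher mean. Map1lc3b, the LC3 form most used as a marker of autophagosomes, read 74375, 18386 and 21966 in WT and 51361, 78687 and 59248 in Trim9 KO. WT 1 lay among the Trim9 KO arrays and the other 2 WT arrays below them, for a log2 difference of 1.00 ± 0.97 (SE). Map1lc3a, its close relative, differed by 0.77 ± 1.03 (SE).

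Gabarapl1 and Gabarap encode the other branch, which acts in membrane closure and also binds the ULK complex. Gabarapl1 read 1787, 8941 and 18075 in WT and 6488, 2271 and 1474 in Trim9 KO, with WT 1 within the Trim9 KO values, for a log2 difference of −1.24 ± 1.13 (SE). Gabarap read 6.46, 1567 and 14991 in WT and 42.0, 720 and 317 in Trim9 KO, and here WT arrays held both the lowest and the highest signal of the 6. Its log2 difference was −1.74 ± 1.98 (SE), and it became 0.36 without WT 3 and −4.33 without WT 1. Gabarapl2, the third of this branch, differed by 0.05 ± 0.93 (SE).

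Probe sets of Map1lc3a, Map1lc3b and Gabarapl2 had differences of both signs, while both of Gabarapl1 were lower. Of the 11 probe sets of the family, 7 had lower means in Trim9 KO and 4 higher. Map1lc3b had probe sets at 0.96, −1.06 and −0.93 beside its brightest, and Map1lc3a had one at −1.90. The second Gabarapl1 probe set was at −2.74, and that of Gabarapl2 read 1918, 5393 and 18178 in WT and 3649, 1986 and 1579 in Trim9 KO, a log2 difference of −1.34. For 6 of the 11 probe sets (54.5%) the WT 3 array was the highest of the 6, beside 14.0% of all probe sets. This is the array whose Gapdh controls did not show the excess of 3′ over 5′ signal seen on the other 5. The Actb controls did not set it apart, at 3.43 times on WT 3 and 2.83 times on Trim9 KO 1. Trim9 KO 1 was the highest array for 0 of the 11 probe sets, beside 34.7% of all probe sets. The part of RNA quality in these values was not tested.

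**Figure D4:**
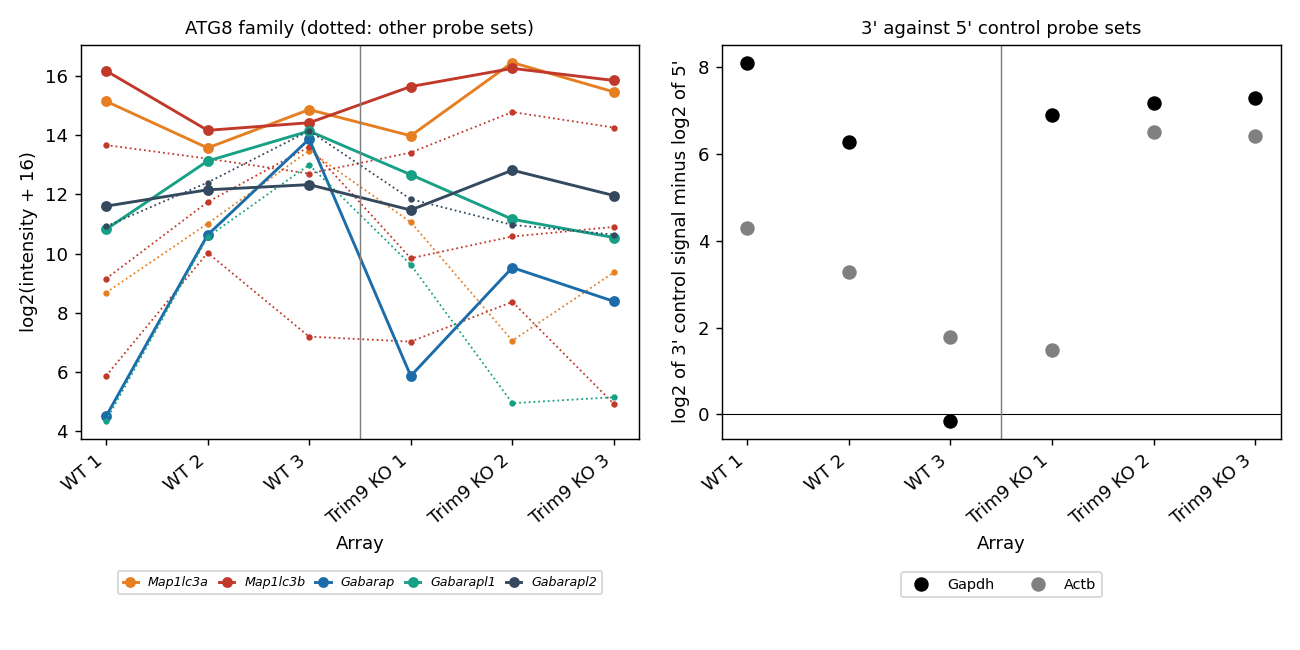
Left, log2(intensity + 16) on each array of the 5 ATG8 family genes, with the brightest probe set of each gene as a solid line and its other probe sets as dotted lines that join the values of 1 probe set. Right, the log2 signal of 3′ minus 5′ control probe sets of Gapdh and Actb on the same arrays, where Gapdh is at −0.14 on WT 3 and at 6.28 to 8.10 on the others.

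The 2 receptors that were measured, Sqstm1 and Nbr1, both had lower means in Trim9 KO. Sqstm1 encodes p62, which binds ubiquitin chains and LC3 and is itself broken down by autophagy. It read 1699, 833 and 9135 in WT and 1975, 1282 and 1018 in Trim9 KO. The WT 3 array stood far above the other 5, and all Trim9 KO arrays lay within the WT range, for a log2 difference of −0.77 ± 1.09 (SE). The sign turned to 0.20 without WT 3. A dim second Sqstm1 probe set differed by 1.12. Nbr1, a receptor that shares domains with p62, read 9801, 34302 and 25961 in WT and 49217, 5849 and 8439 in Trim9 KO. The Trim9 KO 1 array was the highest of all and the other 2 Trim9 KO arrays the lowest, for a log2 difference of −0.61 ± 1.10 (SE), with its other probe set at −1.74. Without Trim9 KO 1 the difference was −1.55, and without Trim9 KO 2 it was −0.014.

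The level of the 29 members as a whole varied between arrays of the same genotype. The median deviation of the members from their own means was −0.43, 0.49 and 0.61 on WT 1, WT 2 and WT 3 and 0.23, 0.23 and −0.35 on Trim9 KO 1, 2 and 3. Over all genes it was −0.15, 0.26 and −0.25 in WT and 0.23, 0.21 and −0.05 in Trim9 KO. WT 3 thus lay high for the autophagy members and low for genes at large. By role, WT 3 was the highest array for the initiation members, at 1.24, and the receptors, at 1.49. The conjugation members were highest on WT 2, at 0.86 beside 0.33 on WT 3, and the ATG8 family on Trim9 KO 2, at 0.76 beside 0.27 on WT 3. By the brightest probe sets, WT 3 held the highest value for 11 members (37.9%) beside 13.3% of all genes. Over all 72 member probe sets, WT 3 and Trim9 KO 1 were each the highest for 20 (27.8%). Among all probe sets these shares were 14.0% and 34.7%. Of the 23 members with at least 2 probe sets, 15 (65.2%) had probe sets of both signs, beside 62.4% of 9010 genes.

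The machinery around the members was read from a list of 63 other autophagy genes, of which 61 were measured. Of these, 34 had lower and 27 higher means in Trim9 KO, with a median difference of −0.13. None had an adjusted p below 0.05 in the limma fit, and 3 (Tsc2, Vps16 and Rraga) had an unadjusted p below 0.05, all with lower means, beside 2.56% of all genes. Tsc2, a brake on the kinase mTOR, and Rraga, a GTPase that activates it, differed by −3.10 and −2.65, both with overlap. The genotypes did not overlap for 2 lower genes, Vps16 and Prkab1, and 2 higher genes, Ulk3 and Lamtor1, beside 2.89% and 5.35% of all genes.

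Vps16, a subunit of the complexes that tether autophagosomes to lysosomes, read 304, 1254 and 978 in WT and 86.8, 39.97 and 252 in Trim9 KO. All Trim9 KO arrays lay below WT 1, the lowest WT array, and the log2 difference was −2.68 ± 1.04 (SE, limma adjusted p = 0.999). Prkab1, a subunit of the energy sensor AMPK, read 7534, 6861 and 6458 in WT and 3993, 6198 and 5292 in Trim9 KO, a log2 difference of −0.45 ± 0.89 (SE), which was −0.28 without Trim9 KO 1 and −1.33 with the mean of its probe sets. Ulk3, a relative of ULK1, read 138, 323 and 468 in WT and 3799, 671 and 579 in Trim9 KO, with Trim9 KO 1 far above the rest, for a log2 difference of 1.98 ± 1.07 (SE), or 1.12 without Trim9 KO 1. Lamtor1, which holds the nutrient-sensing Ragulator complex on the lysosome, read 51921, 63621 and 16362 in WT and 87756, 120994 and 64556 in Trim9 KO. The gap between WT 2 and Trim9 KO 3 was small, and the log2 difference was 1.22 ± 0.97 (SE). It was 0.62 without WT 3 and 0.22 with the mean of its probe sets.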

How the data were processed

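Per the labels, amplified, biotin-labelled retinal RNA was hybridized to 1 array per sample, and all 6 were used. The authors deposited linear intensities, which they had scaled to a trimmed mean of 1500 per array (2% of probe sets trimmed at each end). MAS5 is named in the submitters' notes, with no version, whereas the paper's methods state RMA. A linear scale and unequal medians are not those of RMA output. Intensities were taken as log2(intensity + 16). After 64 control probe sets were left out, 45037 probe sets were fitted with limma 3.58.1 (lmFit and eBayes, R 4.3.3), Trim9 KO against WT, without a filter or a block. Benjamini-Hochberg adjustment ran over all fitted probe sets, at a threshold of 0.05. The eBayes step draws the variance of each probe set toward that of all probe sets. Each SE and limma p-value given here is moderated in this way. For genes whose arrays lay close together the SE exceeds their own spread. Wipi1, with SDs of 0.20 in WT and 0.23 in Trim9 KO, thus had an SE of 0.89. Precision is limited by the number of arrays.

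Of the probe sets, 34945 named 1 gene, and all 72 of the members were matched to the gene reference by gene number. The brightest probe set by mean over the 6 arrays stood for a gene. Values on every array were given for the 3 members of each role with the largest absolute limma statistic, for members without overlap, and for 4 other pathway genes without overlap. Values of other probe sets, and Tsc2 and Rraga, were named after their values were seen. The members and lists were chosen with earlier results of these data known. Of the 6 marker lists, those of lens, microglia, endothelium and erythroid cells are given in the closing section. The fit was also run on simulated data, where recovery of changed probe sets was required only at a spread below that of these arrays. That run does not tell what the fit could detect at the spread seen here. The alternatives tried were a replicate block, a filter on dim probe sets, equal array medians, quantile normalization, pseudocounts of 1 and 64, the mean of probe sets, a trended robust prior, array weights, leaving out each array, and 2 against 2 arrays. Python 3.11.15 and matplotlib 3.10.9 drew the figures.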

Additional observations from a re-analysis of the deposited data

How the results depend on the processing

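Under all alternatives 0 members had an adjusted p below 0.05 in the limma fits, and 9 of 29 members kept their direction throughout (Atg13, Becn1, Atg4a, Atg5, Atg10, Atg12, Atg16l1, Gabarapl1 and Nbr1), which does not make them steady in size. With the mean of probe sets Atg13 was at 0.0040 and Atg16l1 at −0.085, Becn1 was at −0.31 without Trim9 KO 1, Gabarapl1 −0.52 without WT 3, and Nbr1 −0.014 without Trim9 KO 2. The other 20 turned in at least 1, and the cause was not tested. The replicate block, the trended robust prior and the filter on dim probe sets cannot change a log2 difference. They could therefore turn no sign. The count of members with an unadjusted p below 0.05 was 2 with array weights (Atg12 and Atg16l1) and 0 to 3 when 1 array was left out, with 3 without WT 1 (Pik3c3, Wipi2 and Gabarap) and 1 without Trim9 KO 3 (Becn1). The members' median was −0.64 with equal array medians, −0.53 with array weights, −0.17 with the mean of probe sets and 0.14 with 2 against 2 arrays, and with 1 array left out it ran from −0.41 (WT 1) to 0.19 (WT 3). With 1 array left out the medians ran from −0.40 to 0.18 for initiation, −0.31 to 0.07 for conjugation, −0.31 to 0.36 for the ATG8 family and −1.29 to −0.12 for the receptors. The median of the ATG8 family was −0.64 with the mean of probe sets and 0.88 with 2 against 2 arrays, which left out WT 3 and Trim9 KO 1.

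Log2 differences of reversed sign were as follows. With 2 against 2 arrays Rb1cc1 was at 0.31, Pik3c3 0.14, Atg9a 0.55, Atg2a −0.38, Wipi2 0.75, Atg4c 0.16, Atg7 −0.033 and Gabarap 1.4. With array weights Ambra1 was at −0.53, Atg2a −0.073 and Atg4c 0.19. With equal array medians Ambra1 was at −0.028, Atg2a −0.081, Wipi1 −0.23 and Gabarapl2 −0.27. With the mean of probe sets Ulk2 was at 0.029, Wipi1 −0.78, Atg3 1.0, Atg7 −0.068, Map1lc3a −0.56, Map1lc3b −0.0068, Gabarapl2 −0.64 and Sqstm1 0.17. Atg2a was at −0.14 with a pseudocount of 1. With quantile normalization Atg14 was at 0.077, Atg2a −0.10 and Atg4b 0.084. The filter on dim probe sets gave no value for Atg2a. The median of all genes was 0.14 as reported, 0.02 with quantile normalization and −0.19 with equal array medians, with which 49.0% and 57.2% of genes and 17 and 22 members had lower means.

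Leaving out 1 array turned the sign of 16 members, with ranges of −1.56 to 0.39 for Ulk1, −0.42 to 0.23 for Rb1cc1, −2.58 to 0.17 for Pik3c3, −0.83 to 0.40 for Atg14, −1.17 to 1.59 for Ambra1, −0.92 to 0.55 for Atg9a, −1.05 to 2.03 for Atg2a, −0.013 to 0.22 for Wipi1, −3.54 to 0.16 for Wipi2, −0.83 to 0.13 for Atg3, −0.59 to 0.42 for Atg4b, −0.79 to 0.33 for Atg4c, −0.49 to 1.87 for Atg4d, −4.33 to 0.36 for Gabarap, −0.31 to 0.36 for Gabarapl2 and −1.51 to 0.20 for Sqstm1.

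Same-numbered arrays of the genotypes deviated together at r = −0.23, −0.08 and 0.03, and differently numbered ones at −0.29 to 0.28. Whether the numbers pair littermates cannot be told from these values, since arrays also differed within each genotype. With the replicate number as a block 0 members had an adjusted p below 0.05 in the limma fit. The members' median of −0.32 and all directions stayed the same. A block in a balanced design cannot change them, so this does not bear on pairing.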

Other observations

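The summed linear intensity of 6 microglia and macrophage markers, in which the brightest weigh most, was 6109 to 24982 in WT and 23170 to 38248 in Trim9 KO. For 5 lens markers it was 4974 to 45013 and 24988 to 102837, for 3 endothelial markers 867 to 4688 and 1243 to 3507, and for 2 erythroid markers 151 to 597 and 124 to 559. Means above the median of all probe sets were found for 2 of the 6 microglia and macrophage markers and 1 of the 5 lens markers. The same held for 2 of the 3 endothelial and 0 of the 2 erythroid markers.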
